A study of Cucumis melo with 4 samples.

Results

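Unplaced contigs are the pieces of a draft genome assembly that could not be joined into scaffolds. The tables of muskmelon (Cucumis melo) transcript levels analysed here list 32625 loci, and the 2696 loci whose position is given on a contig (8.26%) are described below. They were chosen by the word contig in the locus name alone, so no measured value entered the choice. They lie on 2654 contigs, and the remaining 29929 loci lie on scaffolds.

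The study sequenced RNA from 2 cultivars, named BXC and YL, with 1 control sample and 1 salt-stressed sample for each. No condition has a replicate. Greenhouse plants were used for all 4 samples, with 14 h of light at 7000 lux, days of 28 °C and nights of 24 °C. In the stressed plants sodium chloride was raised by 75 mM a day to 150 and 300 mM. The labels leave out which of those final levels each stressed sample reached, the plants' age, any pooling and the tissue.

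There is 1 table per cultivar, called B and Y after the letter that begins the sample titles of BXC and YL. Each holds a level for a first and a second library, and neither column names its treatment. Every direction below is therefore the second library relative to the first, and which of them was salt-stressed is not stated. The levels are the authors' RPKM values, reads per kilobase of transcript per 1000000 mapped reads. Whether the tables were scaled together is not given, so levels set side by side across B and Y carry that limit. Read counts were not used here, so the depth behind each level is unknown and no interval is given.

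In draft assemblies of plant genomes, short contigs commonly hold stretches that are hard to assemble, such as repeats, ribosomal RNA genes, pieces of chloroplast or mitochondrial DNA and broken ends of genes. A transcript that maps to such a contig can be whole or a fragment. High salt in soil withholds water from roots and brings sodium into the plant, and a cultivar's tolerance depends in part on the genes it switches on or off in reply. The identifiers of the tables (MELO3C followed by digits) come without a gene name or function. Of the 1914 distinct identifiers on contigs, 0 matched the reference gene table supplied (assembly USDA_Cmelo_AY_1.0), so no function is given to any of them.

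Of the 2696 contig loci, 1919 carried an identifier, of which 2 carried more than 1. The other 777 loci carried none. Loci without an identifier made up 28.8% of contig loci, against 10.5% of scaffold loci. No identifier of a contig locus was also listed on a scaffold, and 5 were listed at several contig loci. The listed regions were short. Those with an identifier spanned 109 to 1949 bases, with a median of 268, and those without spanned 101 to 1561 bases, with a median of 330. On scaffolds the corresponding medians were 2821.5 and 1056 bases.

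Both kinds of contig locus differed in where they sat on the contig. A start within the first 10 bases was listed for 358 loci without an identifier (46.1%) and for 156 with one (8.13%). The region length was a multiple of 3 at 70.1% of loci with an identifier and at 33.3% of those without. Listed regions ended earlier on contigs with higher numbers. The Spearman correlation of contig number with the end of the listed region was -0.80 over the 2696 loci. The numbers ran from 30896 to 60622. The median end was base 1139 for the 100 lowest numbered loci and base 145 for the 100 highest.

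Most contig loci with an identifier were listed at 0 in each library. In the first and second library of B, 336 and 325 of the 1919 were listed above 0 (17.5% and 16.9%). The corresponding counts in Y were 353 and 382 (18.4% and 19.9%). On scaffolds, 64.5% to 72.4% of loci with an identifier were above 0 in a library. At 1453 contig loci with an identifier (75.7%) the level was 0 in all 4 libraries, against 23.4% on scaffolds, and 254 (13.2%) were above 0 in all 4.

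Most contig loci without an identifier were above 0 in each library. In B, 510 and 639 of the 777 were above 0 (65.6% and 82.2%), and in Y 601 and 751 were (77.3% and 96.7%). The scaffold loci without an identifier gave 55.0% and 75.2% in B and 61.4% and 96.3% in Y. All 777 were above 0 in at least 1 library, and 437 (56.2%) were above 0 in all 4. Of the 3149 scaffold loci without an identifier, 2 (0.0635%) were at 0 in all 4. A level above 0 somewhere was thus nearly universal among loci without an identifier, and how such loci came to be listed is not given. Both kinds of place had their highest share in the second library of Y and a lower share in each first library than in the second of the same table. Among the incomplete patterns, 101 of the contig loci without an identifier were above 0 in both second libraries and in neither first, and 9 in both first and in neither second. A further 47 were above 0 in both libraries of Y alone, and 42 in the second library of Y alone. Among the 3149 scaffold loci without an identifier, 501 were above 0 in both second libraries alone and 28 in both first alone. Another 142 of them were above 0 in both libraries of Y alone, and 481 in the second of Y alone. The lean to the second libraries was therefore not limited to contigs.

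The low detection of identified contig loci went together with their short regions. Among loci with an identifier and a region of 201 to 300 bases, 9.15% to 10.9% were above 0 on contigs, against 3.57% to 6.74% on scaffolds. For 301 to 400 bases the shares were 13.6% to 17.2% on contigs and 7.62% to 14.7% on scaffolds. For 601 to 1000 bases they were 59.1% to 65.2% and 44.6% to 61.1%, and for 1001 to 2000 bases 78.3% to 85.0% and 64.8% to 75.8%. At these lengths the contig share was the higher of the pair in each library. At 401 to 600 bases the order was mixed, with 23.8% on contigs against 18.9% on scaffolds in the first library of B and 25.3% against 32.2% in the second of Y. A region is not a transcript length, because scaffold regions can span introns, and what that does to these shares was not tested. Contig loci without an identifier had no such rise with length, and their shares spread more between libraries than between length classes.

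**Figure D1:**
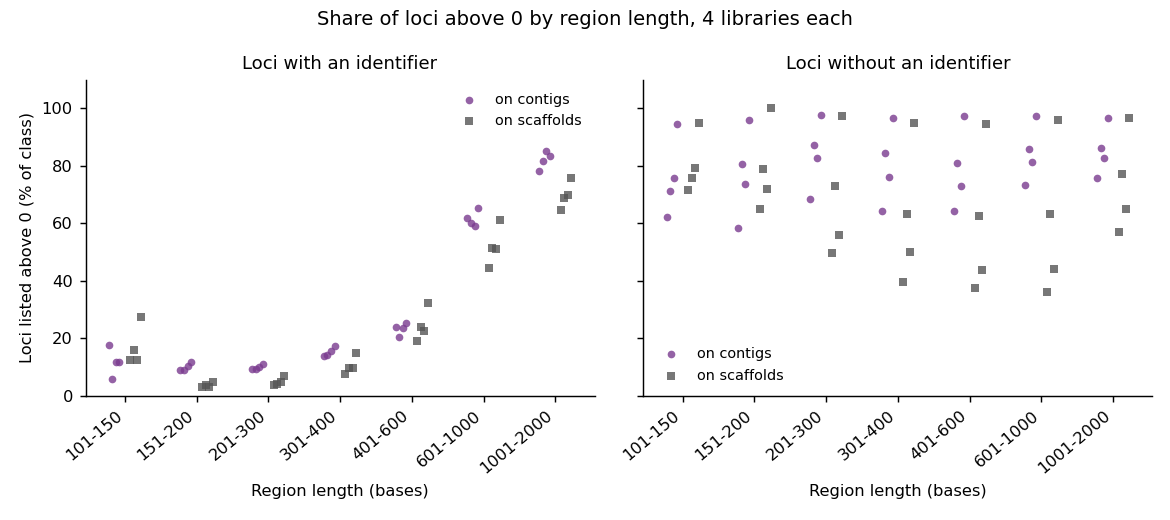
Share of loci above 0 (percent of the class, vertical axis) by region length in bases, for loci with an identifier (left) and without one (right); each point is 1 of the 4 libraries, with contig loci as circles and scaffold loci as squares. With an identifier the contig share rises from 9.15% to 10.9% at 201 to 300 bases to 78.3% to 85.0% at 1001 to 2000 bases, and without one the second library of Y is near the top of every length class.

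Where a contig locus was above 0, its level was high. The median over such loci with an identifier was 91.0 and 88.5 RPKM in B and 87.9 and 48.5 RPKM in Y. Without an identifier it was 83.0 and 87.1 RPKM in B and 123 and 125 RPKM in Y. Scaffold medians were 6.92 to 9.51 RPKM with an identifier and 2.52 to 3.79 RPKM without. Levels over 1000 RPKM were listed at 243 and 264 contig loci in B and at 299 and 336 in Y. Those were 27.4% to 31.3% of the contig loci above 0, whereas 1.23% to 1.58% of the scaffold loci above 0 passed that level. Over 1000000 RPKM there were 24 and 19 contig loci in B and 29 and 25 in Y, more than the 13, 8, 18 and 16 scaffold loci.

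The level fell steeply with the length of the region. Among contig loci without an identifier, the median at 101 to 150 bases was 128405 and 93033 RPKM in B and 260906 and 60242 RPKM in Y. At 201 to 300 bases the medians of the first libraries were 368 RPKM in B and 543 RPKM in Y. At 601 to 1000 bases they were 3.71 and 4.33 RPKM in B and 5.42 and 8.97 RPKM in Y. The Spearman correlation of level with region length over the loci above 0 was -0.79 and -0.78 in B (n = 510 and 639) and -0.80 and -0.81 in Y (n = 601 and 751). Those loci share a library, and length enters the unit itself. With an identifier the correlation was -0.36 to -0.40, and over scaffold loci with an identifier it was 0.04 to 0.13. Over scaffold loci without an identifier it was -0.28 to -0.36, so the fall with length was not limited to contigs.

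The lower edge of the levels moved with length as well. The tenth percentile over contig loci without an identifier in the first library of B was 8815 RPKM at 101 to 150 bases, 35.1 RPKM at 201 to 300 and 0.580 RPKM at 601 to 1000. In the second library of Y the same percentile went from 8770 RPKM to 51.6 and 1.98 RPKM. A short contig locus without an identifier was therefore rarely listed at a low level, other than 0. Some identified short loci lay lower, such as MELO3C001701 on contig45634 (bases 141 to 291), chosen after its values were seen, with 3.04 RPKM in the first library of B. Short scaffold loci had high levels too. In the first library of B the median of scaffold loci without an identifier was 26788 RPKM at 101 to 150 bases. How far length sets the levels of short loci was not tested.

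**Figure D2:**
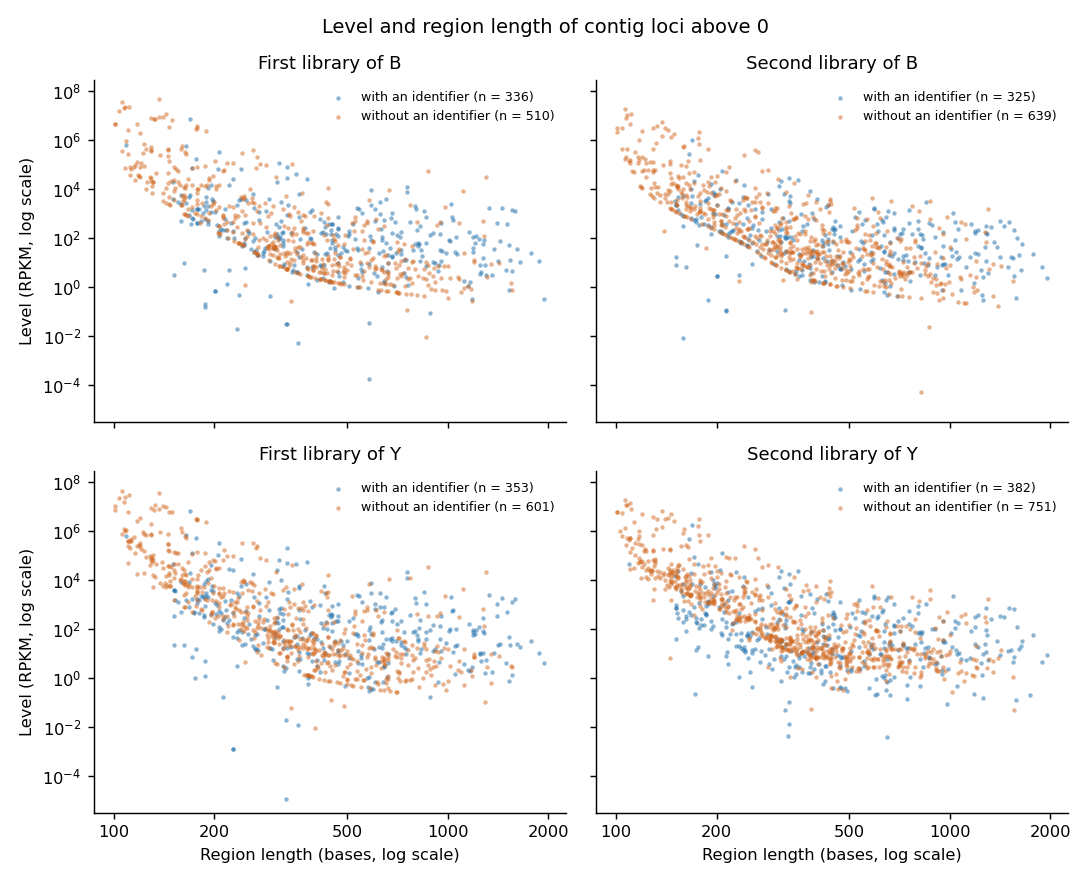
Level of each contig locus above 0 (RPKM, log scale) against the length of its region (bases, log scale) in each of the 4 libraries, coloured by whether the locus has an identifier. Levels fall with length and have a sloping lower edge, with a few loci beneath it, and the loci over 1000000 RPKM are all under 200 bases.

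From 301 bases upwards, identified contig loci had a higher median than scaffold loci of like region length in each library, and under that length the order was mixed. At 201 to 300 bases the medians were 171 RPKM on contigs and 105 RPKM on scaffolds in the first library of B, but 196 and 277 RPKM in the second. At 601 to 1000 bases, contig loci with an identifier had a median of 37.4 and 26.4 RPKM in B and 40.7 and 21.7 RPKM in Y. Scaffold loci of that region length had 3.61 and 2.96 RPKM in B and 3.52 and 2.23 RPKM in Y. Contig loci without an identifier of that length had 3.71 and 4.33 RPKM in B and 5.42 and 8.97 RPKM in Y. Scaffold loci without an identifier of that length had 1.70 and 1.35 RPKM in B and 1.75 and 2.30 RPKM in Y. There too the contig median was the higher one in each library. What spanning introns does to these differences was not tested.

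Some levels were higher than region length and read total allow together. If every mapped read fell on 1 locus, a level of 50800000 RPKM could arise only over 19.7 bases or fewer, and contig56839, which had that level in the first library of B, is listed over 137 bases. The highest level in the first library of Y, 46400000 RPKM at contig60011, would need 21.6 bases or fewer, and its region is 106 bases. Over their listed regions, 12 and 3 contig loci in B and 13 and 4 in Y had such a level. So did 4 and 2 scaffold loci in B and 4 and 7 in Y. The length by which the authors divided is not stated, and the levels of the shortest loci cannot be read as reads per kilobase of the listed region.

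A few loci of equal length had equal or simply related levels, and most did not. Among contig loci of 200 bases or fewer and under 1000000 RPKM, 2 of 147 and 4 of 182 in B and 4 of 179 and 6 of 231 in Y shared both level and length with another. Both contig loci of 101 bases, contig54636 (bases 73 to 173) and contig60622 (bases 1 to 101), had 4650000 RPKM in the first library of B and 5920000 RPKM in the second library of Y. In the second library of B they had 2110000 and 3170000 RPKM, and in the first of Y 7350000 and 11000000 RPKM. Among loci of 110 bases in the first library of Y, contig54892 (bases 15 to 124) had 48451 RPKM, contig55116 (bases 17 to 126) 242255 RPKM and contig43912 (bases 1 to 110) 387608 RPKM. The latter levels were 5 and 8 times the first. The other contig loci of that length had no such ratio, with contig46042 (bases 212 to 321) at 8.43 times and contig57593 at 123 times the same level.

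Contig loci held a large part of the summed level. Their share of the sum over all loci was 49.8% and 31.6% in B and 41.4% and 16.2% in Y, lower in the second library of both tables. This is a share of RPKM and not of reads. The 125 contig loci of 150 bases or fewer held 90.3% to 91.3% of the contig sum. Over regions of 200 bases or more the share was 1.28% and 0.953% in B and 0.868% and 0.425% in Y. Over 500 bases or more it was 0.0818% and 0.0276% in B and 0.0489% and 0.0160% in Y. A single scaffold locus (scaffold00008, bases 7385849 to 7388319) held 38.1% to 56.7% of all summed level, and without it the contig share was 80.5%, 72.9%, 80.2% and 27.4% in the same order of libraries.

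The most abundant contig loci were largely shared between libraries. The 10 highest contigs held 72.8% and 70.2% of the contig sum in B and 68.3% and 63.9% in Y. Taking the 5 highest loci of each library without an identifier gave 7 distinct loci, of 104 to 137 bases, and 3 of them were among the 5 in all 4 libraries. Of the 7, 6 had their lower level in the second library in both cultivars, and 1 had its higher level there. That lean was not particular to the most abundant loci. Contig loci of 101 to 150 bases without an identifier shared it as a class. By the authors' deposited tables, the class median on the log2 scale was -1.11 in B (58 loci) and -1.16 in Y (77 loci). None of the 7 had an authors' q-value under 0.05 in either of those tables. The lowest was 0.851 in B and 0.724 in Y.

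The locus contig60011 (bases 1 to 106) had 37600000 and 19500000 RPKM in B and 46400000 and 19900000 RPKM in Y, and was the highest contig locus in 3 libraries. The locus contig56839 (bases 1 to 137) had 50800000 and 5820000 RPKM in B and 38400000 and 6770000 RPKM in Y. It was the highest in the first library of B, where it made up 17.8% of the contig sum. Both first libraries lay above both second libraries at each of these loci. The locus contig57593 (bases 29 to 138) went the other way, with 2570000 and 4750000 RPKM in B and 5970000 and 14300000 RPKM in Y. The other 4 were contig59386 (bases 1 to 111), contig59726 (bases 1 to 108), contig59804 (bases 1 to 107) and contig60222 (bases 1 to 104). Their levels ran from 15200000 to 30700000 RPKM in the first libraries and from 3060000 to 11800000 RPKM in the second.

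With an identifier, the same choice also gave 7 distinct loci, of 109 to 330 bases, with 3 in all 4 libraries. Of these, 6 were lower in the second library of both tables. Identified contig loci of all lengths together also leaned lower, with log2 medians of -0.40 in B and -0.99 in Y by the authors' deposited tables. MELO3C001763 on contig47074 (bases 120 to 288) had 7710000 and 1000000 RPKM in B and 6620000 and 1840000 RPKM in Y, more than any other identified contig locus in each library. MELO3C001815 on contig48575 (bases 61 to 225) had 566929 and 274286 RPKM in B and 705859 and 490914 RPKM in Y. MELO3C001595 on contig43978 (bases 76 to 282) had 332941 and 53041 RPKM in B and 337585 and 131283 RPKM in Y. At each of these the second library was the lower one in both cultivars.

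The other 4 identified loci were less even. MELO3C000323 on contig32643 (bases 8 to 116) had 631599 RPKM in the first library of B and was listed at 0 in the second, and it had 638733 and 47307 RPKM in Y. MELO3C001566 on contig43656 (bases 192 to 367) had 168581 and 38436 RPKM in B and 536112 and 44915 RPKM in Y. MELO3C001821 on contig48799 (bases 57 to 227) had 70884 and 21932 RPKM in B and 123767 and 84672 RPKM in Y. MELO3C001317 on contig40559 (bases 34 to 363) was the exception to the lower second library, with 27220 and 29580 RPKM in B and 48860 and 18045 RPKM in Y.

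**Figure D3:**
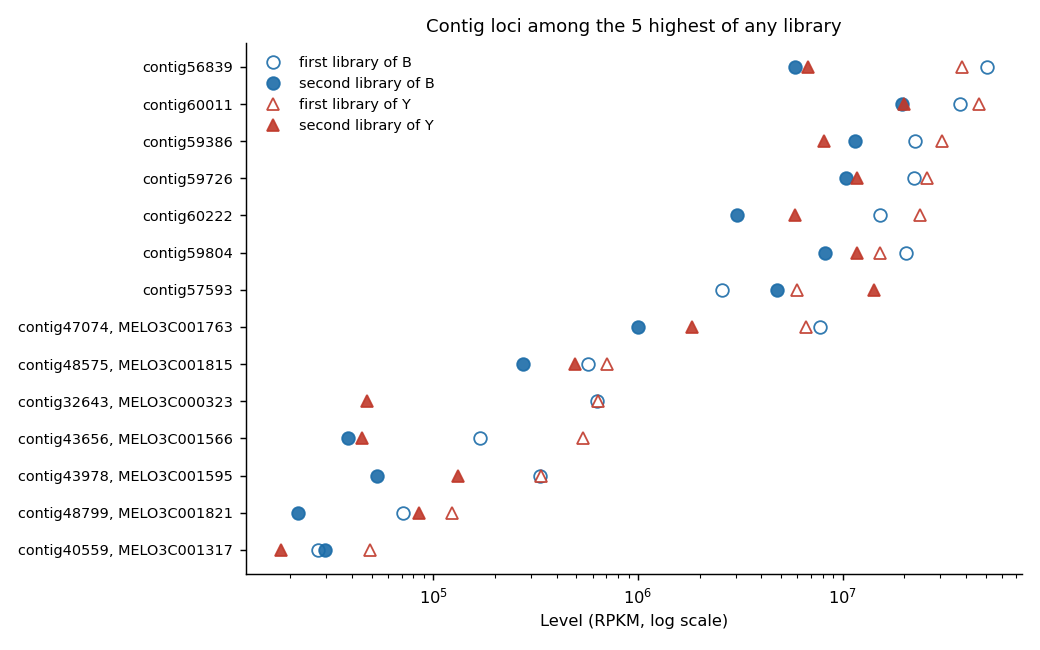
Level (RPKM, log scale, horizontal axis) of the most abundant contig loci, 7 without and 7 with an identifier, 1 locus per line; circles are table B and triangles table Y, open for the first and filled for the second library. All but contig57593 and contig40559 have both second libraries below the first of their table, and the 0 of contig32643 in the second library of B is not drawn.

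The ranking was different among longer regions. It was repeated over the 466 contig loci of 500 bases or more, a limit chosen after the levels had been seen. The 5 highest of each library gave 11 distinct loci, of which 6 had an identifier and 1 was among the 5 in all 4 libraries. That locus, contig34593 (bases 1 to 872, no identifier), had 55776 and 3182 RPKM in B and 35705 and 3876 RPKM in Y. The locus contig32336 (bases 1 to 1300, no identifier) had 30119 and 1539 RPKM in B and 20911 and 1722 RPKM in Y. MELO3C000284 on contig32422 (bases 94 to 849) had 12334 and 1346 RPKM in B and 22318 and 550 RPKM in Y. All 3 were lower in both second libraries. The authors' deposited tables put contig34593 at 17.5-fold lower (B, p-value 0.714) and 9.21-fold lower (Y, p-value 0.538).

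At the top of the second libraries stood contig38059 (bases 27 to 609, no identifier), with 3525 and 4217 RPKM in B and 6759 and 5930 RPKM in Y. Its 4 levels were within 2-fold of each other. The locus contig35160 (bases 40 to 809, no identifier) had 2236, 2030 and 2107 RPKM in 3 libraries and 12295 RPKM in the first library of Y, which alone stood apart. A second entry without an identifier covers the same region, at 2.28 and 4.11 RPKM in B and 0.793 and 14.9 RPKM in Y, so levels on that region are split between entries that moved in opposite directions in Y.

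Several loci on 1 contig were the exception. Of the 2654 contigs, 2618 had 1 locus, 30 had 2 and 6 had 3. The 36 contigs with several loci held 78 loci. On 17 of them every locus had an identifier, on 12 none had, and on 7 both kinds were listed. On 7 contigs every locus was at 0 in all 4 libraries, and on 8 contigs loci shared the same region, so their values are not separate.

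On the 28 contigs without a shared region, neighbours could have very unlike levels. A more than 10-fold gap between the highest and the lowest locus above 0 was listed on 5 of 12 and 5 of 13 contigs in the libraries of B, and on 4 of 12 and 5 of 15 in those of Y. All loci of a contig had the same direction of fold on 8 of 12 contigs in each table. By the authors' deposited tables, the median gap between the highest and lowest log2 fold of a contig was 1.07 in B and 1.16 in Y. The largest was 3.28 on contig33686 in B and 3.36 on contig31622 in Y.

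The contigs with the most loci, and the highest levels among them, show that range. On contig31780, a locus without an identifier (bases 1 to 120) had 2030000 and 2300000 RPKM in B and 3580000 and 5210000 RPKM in Y, higher in the second library of both. Further along, MELO3C000179 (bases 577 to 1131) had 1078 and 547 RPKM in B and 1269 and 439 RPKM in Y. MELO3C000180 (bases 1153 to 1347) had 15321 and 7524 RPKM in B and 42755 and 9958 RPKM in Y. Both identified loci were lower in the second library of each table, against the direction of their neighbour.

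On contig33686, the identifier MELO3C000494 was listed at 2 places. At bases 312 to 509 it was at 0 in all 4 libraries, and at bases 829 to 997 it had 5684 and 5106 RPKM in B and 19432 and 7017 RPKM in Y. A locus without an identifier at bases 6 to 150 had 17529 and 1624 RPKM in B and 38851 and 9110 RPKM in Y. On contig32611, MELO3C000312 was listed 3 times, and at bases 84 to 332 it was at 0 throughout. At bases 483 to 660 it had 1588 and 2495 RPKM in B and 1165 and 7154 RPKM in Y. At bases 851 to 1035 it had 1079 and 3315 RPKM in B and 2270 and 5261 RPKM in Y, so both listed parts of that identifier moved upwards together.

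Between the libraries of a table, identified contig loci were more often lower. Those without an identifier, all lengths together, were more often higher once loci at 0 in 1 library are counted, and nearly even in B over finite folds alone. In the authors' deposited table for B, the log2 fold of 270 contig loci with an identifier had a median of -0.40, with 51 at least 2-fold higher and 97 at least 2-fold lower (18.9% and 35.9%). For 444 without an identifier the median was -0.03, with 131 higher and 129 lower (29.5% and 29.1%). Contigs and scaffolds together, the same table had 22% of its loci at least 2-fold higher and 26.2% at least 2-fold lower.

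In the authors' deposited table for Y, 300 contig loci with an identifier had a median log2 fold of -0.99, with 44 at least 2-fold higher and 150 at least 2-fold lower (14.7% and 50%). For 583 without an identifier the median was 0.25, with 205 higher and 175 lower (35.2% and 30%). In both of the authors' deposited tables, the median log2 fold of contig loci without an identifier varied with region length. At 101 to 150 bases it was -1.11 in B and -1.16 in Y (58 and 77 loci). At 601 to 1000 bases it was 0.56 and 1.53 (67 and 89 loci), and at 1001 to 2000 bases -0.06 and -0.12 (15 and 24 loci). Over all loci of the authors' deposited table for Y, 23.7% were at least 2-fold higher and 32.3% at least 2-fold lower. The 2-fold lower share of identified contig loci was above the share over all loci in both tables. Contig loci without an identifier were above the share over all loci in the higher direction in both, but not above scaffold loci without an identifier, of which 30% in B and 45.7% in Y were at least 2-fold higher in the authors' deposited tables. At least 2-fold lower were 29.1% of these contig loci in B and 30% in Y, against 26.2% and 32.3% over all loci. For scaffold loci without an identifier the lower shares were 25% and 21.8%. Counting tested loci at 0 in 1 library on the side where they were above 0 gave 278 higher and 166 lower contig loci without an identifier in B, and 372 and 193 in Y. With an identifier the same count gave 89 against 140 in B and 107 against 188 in Y, higher against lower. Scaffold loci without an identifier gave 633 against 347 in B and 1945 against 459 in Y by that count. All loci gave 4621 against 4702 in B and 7132 against 6630 in Y. The higher lean of loci without an identifier was therefore not particular to contigs. With 1 library per condition, the spread between plants of a condition is not known, and these shares have no test.

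Contig loci of both kinds mostly kept their direction across the cultivars. Of 248 identified loci with a fold in both tables, 179 (72.2%) had the same sign, 14 were at least 2-fold higher in both and 72 at least 2-fold lower in both. Of 417 without an identifier, 314 (75.3%) had the same sign, with 68 at least 2-fold higher in both and 81 at least 2-fold lower. On scaffolds 79.1% of loci with an identifier and 74.1% of those without had the same sign. Of 13881 identified scaffold loci, 1738 were at least 2-fold higher in both and 2868 at least 2-fold lower. Of 1006 without an identifier, 187 were higher and 152 lower by that limit. Opposite changes of at least 2-fold were listed at 14 of 248 identified contig loci and at 20 of 417 without an identifier. On scaffolds they were listed at 200 of 13881 and 38 of 1006.

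**Figure D4:**
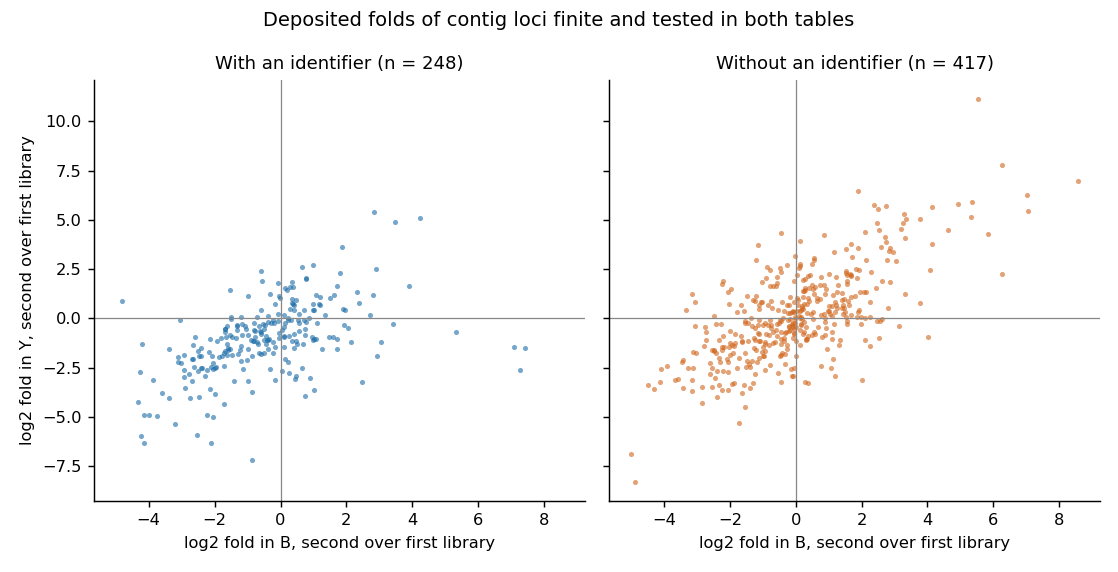
The authors' log2 fold, second over first library, in table B (horizontal axis) and table Y (vertical axis) for contig loci with a finite fold in both, 248 with an identifier (left) and 417 without (right); each point is 1 locus. Most points lie in the quadrants where both folds have the same sign, 72.2% with an identifier and 75.3% without.

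The rank order of levels was more alike between the first libraries than within a cultivar. Over the 437 loci without an identifier above 0 in all 4 libraries, the Spearman correlation was 0.971 between both first libraries and 0.964 between both second ones, against 0.933 within B and 0.912 within Y. Over the 254 with an identifier, it was 0.941 and 0.916, against 0.881 and 0.883. These loci share the dependence of level on length. Over the 330 loci of 200 bases or more without an identifier, the values were 0.938 and 0.927, against 0.861 within B and 0.816 within Y.

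The authors' test called few contig loci. In the authors' deposited table for B, 6 of 979 tested contig loci had a q-value under 0.05 (0.613%), and over all tested loci 0.415% did. All 6 were higher in the second library and had no identifier. In the authors' deposited table for Y, 12 of 1169 were called (1.03%), against 0.515% over all tested loci, with 10 higher, 2 lower and 3 with an identifier. The higher calls were 0.21% of all tested loci in B and 0.185% in Y. Together 16 loci were called in either table, 13 of them without an identifier, over regions of 328 to 1000 bases. None of the very short, very abundant loci was among them.

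Most called loci had the same direction in both cultivars. Of the 16, 13 had the higher level in both second libraries and 2 the lower level there. Only contig38792 and contig43484 passed in both. The locus contig43484 (bases 2 to 377, no identifier) had 14.7 and 5581 RPKM in B and 32.8 and 4116 RPKM in Y. The authors' deposited tables give it log2 folds of 8.57 in B (q-value 0.00185) and 6.97 in Y (q-value 0.0225). The locus contig38792 (bases 3 to 559, no identifier) had 1.87 and 144 RPKM in B and 0.844 and 185 RPKM in Y. Its log2 folds in the authors' deposited tables were 6.27 (q-value 0.0472) and 7.77 (q-value 0.0211). Both loci were far apart between the libraries of each cultivar, which follows in part from passing in both tables. Their levels were near each other between cultivars.

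Of the other 4 loci called in B, 3 were also higher in Y. The locus contig31539 (bases 28 to 1027) had 0.340 and 44.0 RPKM in B and 0.763 and 58.4 RPKM in Y. The locus contig36322 (bases 3 to 709) had 0.586 and 78.5 RPKM in B and 1.84 and 81.5 RPKM in Y. The locus contig42426 (bases 6 to 419) had 2.07 and 355 RPKM in B, and in Y it was listed at 0 and at 293 RPKM. The exception was contig31858 (bases 942 to 1330), with 12.9 and 695 RPKM in B and 0 in both libraries of Y. Its log2 fold in the authors' deposited table for B was 5.76, with a q-value of 0.0387.

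Among loci called in Y alone, 8 were listed at 0 in the first library of B, where a fold is infinite. The locus contig41505 (bases 13 to 420) had 0 and 1576 RPKM in B and 2.42 and 2002 RPKM in Y. Its log2 fold of 9.69 in Y (q-value 0.00270, the authors' deposited table) came with an authors' q-value of 0.819 in B. The locus contig43146 (bases 1 to 398) had 0 and 3007 RPKM in B and 10.1 and 5702 RPKM in Y, with a log2 fold of 9.14 in Y by the authors' deposited table (q-value 0.00485). The locus contig36333 (bases 1 to 588) had 0 and 321 RPKM in B and 1.54 and 790 RPKM in Y. In B these loci had the same direction as in Y although the authors' test there gave no call, so a call in 1 table alone does not show a difference between the cultivars, which was not tested.

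The remaining higher calls in Y were contig38759 (bases 45 to 566), contig39753 (bases 2 to 499) and contig42412 (bases 8 to 420), and the identified loci MELO3C000887 and MELO3C001286. MELO3C000887 on contig36718 (bases 17 to 655) had 0 and 3.90 RPKM in B and 0.659 and 164 RPKM in Y. MELO3C001286 on contig40243 (bases 40 to 367) had 0 and 109 RPKM in B and 2.43 and 1277 RPKM in Y. At both, the second library of Y was the highest of the 4.

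The only calls in the lower direction were in Y. MELO3C000280 on contig32411 (bases 411 to 1164) had 7575 and 425 RPKM in B and 12680 and 158 RPKM in Y. By the authors' deposited tables it was 17.8-fold lower in the second library of B (q-value 0.162) and 80.3-fold lower in Y (q-value 0.0260). The locus contig43647 (bases 2 to 383, no identifier) had 165 RPKM and 0 in B and 534 and 5.63 RPKM in Y. Its log2 fold in the authors' deposited table for Y was -6.57, with a q-value of 0.0410. Both were lower in each cultivar. At an unadjusted p-value under 0.05 the authors' deposited tables list 72 contig loci in B (7.35% of those tested, 6.62% over all loci) and 103 in Y (8.81%, 6.71% over all loci).

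**Figure D5:**
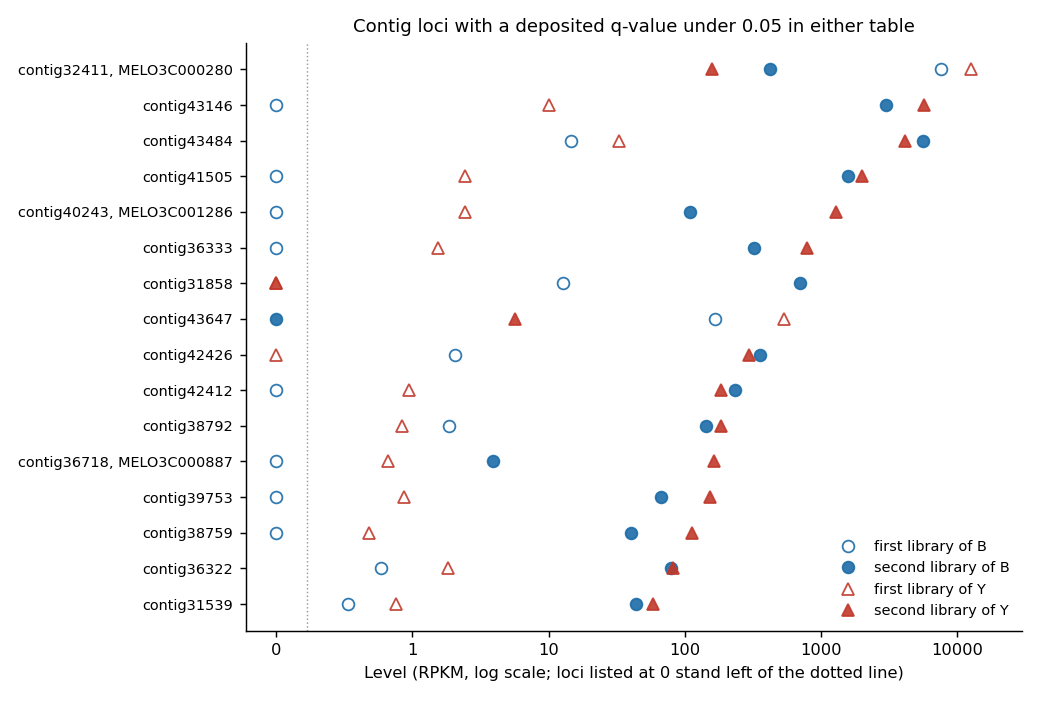
Level (RPKM, log scale with 0 at the left, horizontal axis) of the 16 contig loci with an authors' q-value under 0.05 in either table, 1 locus per line; circles are table B and triangles table Y, open for the first and filled for the second library. At 13 of them the filled symbols lie to the right in both tables, while contig32411 and contig43647 lie lower in both and contig31858 is at 0 in both libraries of Y.

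Loci listed at 0 in 1 library of a table were more often at 0 in the first. In B, 222 of the 2696 contig loci were at 0 only in the first library and 104 only in the second, and in Y 246 and 67. Over all 32625 loci the same counts were 2779 and 1212 in B and 3493 and 848 in Y, so this lean was not particular to contigs. The contig loci with the highest level in the opposite library were short. The locus contig37295 (bases 421 to 524) was at 0 in both first libraries and had 436739 RPKM in the second of B and 645359 RPKM in the second of Y. The locus contig41963 (bases 1 to 114) did the same, with 320591 and 327353 RPKM in the second libraries. Both cultivars gave the same pattern at these loci.

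Of the others, some differed between the cultivars and some had the reverse pattern in both. The locus contig55485 (bases 1 to 107) had 0 and 203952 RPKM in B and 1230000 and 268070 RPKM in Y. The locus contig43314 (bases 6 to 108) was at 0 in 3 libraries and had 1050000 RPKM in the second library of Y. Among those at 0 in the second library, contig58864 (bases 1 to 115) had 80364 RPKM in the first of B and 605129 RPKM in the first of Y. The locus contig51560 (bases 94 to 205) had 39323 and 386333 RPKM in the same libraries, and both loci were at 0 in both second libraries.

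The locus contig55555 (bases 7 to 151) had 46750 RPKM and 0 in B, and 171105 and 6.69 RPKM in Y. The authors' deposited table for Y gives that locus a 25576-fold lower level with a p-value of 0.338. The locus contig48316 (bases 39 to 169) was at 107007 RPKM in the first library of Y and at 0 in the other 3. A single high level at a locus of such length was not called by the authors' test, and the read number behind it is unknown.

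Some contig loci were listed in 1 cultivar only. These were defined after the levels had been seen, as loci at 0 in both libraries of a table and at 10 RPKM or more in both of the other. In Y alone there were 30, of which 25 had no identifier, among 606 contig loci at that level in both libraries of Y (4.95%). On scaffolds 57 of 6424 were (0.887%). In B alone there were 6, of which 4 had no identifier, among 522 (1.15%), and on scaffolds 12 of 6648 were (0.181%). Over regions of 200 bases or more the contig shares were 2.86% in Y and 1.30% in B, and the scaffold shares 0.703% and 0.153%. These shares mix both kinds of locus, and contigs held more without an identifier. At any level above 0, 47 of 777 such contig loci were listed in Y alone, against 142 of 3149 on scaffolds. With an identifier these were 13 of 1919 and 337 of 26780. In B alone they were 5 of 777 and 36 of 3149 without an identifier, and 5 of 1919 and 72 of 26780 with one.

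Among the contig loci of 10 RPKM or more so defined, MELO3C000032 on contig31019 had 4802 and 2223 RPKM in Y and 0 in both libraries of B. MELO3C000382 on contig32983 (bases 75 to 794) had 108 and 162 RPKM in B and 0 in both libraries of Y. Whether such a locus is missing from a cultivar's genome, not transcribed or not matched by its reads cannot be told apart with these tables.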

How the data were processed

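RNA was sequenced from 4 samples, 1 per cultivar and treatment. Per the submitters' processing notes, CASAVA and TopHat2 were used; no version is stated, and neither is a quantification tool or a genome build, apart from the CM3.5 prefix of the locus names. The authors deposited RPKM levels for 2 libraries per table, and per the file headers a log2 fold of the second over the first library with a p-value and a q-value for each locus. How their test estimated variability from 1 library per condition is not recorded.

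The 4 level columns name no treatment and were tied to a cultivar only, through the letter of the table. Contig loci were selected by name and joined across tables by the row identifier that both hold, with starts converted to count from 1. Levels, counts, shares, medians and Spearman correlations were computed with Python 3.11.15, pandas 2.3.3, numpy 2.4.6 and scipy 1.17.1, and drawn with matplotlib 3.10.9. Only the count of 2-fold changes and the median log2 fold were first run on simulated folds, which came back by construction. No other step was checked in that way. No test was run, since each condition has 1 library. Folds entered where the status was OK and the fold finite.

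Loci were named by rule: the 5 highest per library with and without an identifier, the 3 contigs with the most loci (ties by summed level), each locus with an authors' q-value under 0.05, and the 3 highest among those at 0 in 1 library of a table. Other named loci were chosen after their values were seen. The contig loci, rules and limits were chosen with earlier results of these data known. Sequences were not used here.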

Additional observations from a re-analysis of the deposited data

Results flagged for a closer look

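Opposite directions in the cultivars were listed for MELO3C000512 on contig33824 (bases 109 to 957), one of the most abundant contig loci of 500 bases or more. Its level was 1294 and 3095 RPKM in B and 3205 and 1102 RPKM in Y. The log2 folds of the authors' deposited tables are 1.26 (B, p-value 0.394) and -1.54 (Y, p-value 0.359). The difference between the tables was not tested, since each library stands alone.

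The median log2 fold of contig loci without an identifier also had opposite signs, at -0.027 in B and 0.25 in Y by the authors' deposited tables. Over the 417 of these loci with a fold in both of the authors' deposited tables, the medians were -0.06 and -0.02. That difference was not tested either.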

How the results depend on the processing

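Across 24 results and 78 alternatives, 49 values stayed near the reported one, 25 moved and 4 changed sign. The median level of contig loci fell to 35.7, 37.3, 37.6 and 29.3 RPKM (first and second library of B, then of Y) over regions of 200 bases or more. It was 138, 159 and 150 RPKM in the second library of B and both of Y over loci above 0 in all 4. The contig share of the summed level was 1.28%, 0.953%, 0.868% and 0.425% over 200 bases or more, and 80.5%, 72.9%, 80.2% and 27.4% without the highest scaffold locus. The median log2 fold of all contig loci, -0.13 in B and -0.26 in Y, turned to 0.12 and 0.24 with 1 added to each level. It turned to 0.0087 and 0.032 after subtracting the median over all loci, and was -0.0052 in B over 200 bases or more. At 4-fold, the higher and lower contig loci numbered 95 and 117 (B) and 146 and 173 (Y). Counting loci at 0 in 1 library gave 367 higher against 306 lower (B) and 479 against 381 (Y). Finite folds gave 182 against 226 and 249 against 325, so the balance turned from lower to higher. Over all loci it went from 3523 against 4201 to 4621 against 4702 in B. In Y it went from 4500 against 6145 to 7132 against 6630, so the turn in Y was not particular to contigs. A q-value limit of 0.01 left 1 call in B and 4 in Y, and 0.1 gave 23 in Y. Shares over all loci at 4-fold and at those q-value limits are not given here. The limits of 200 and 500 bases and the removal of the scaffold locus were chosen after seeing the data. The cause of the other moves was not tested. No paired analysis was possible because the columns carry no replicate number or treatment and no result comes from a test.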
